A study of Mus musculus with 32 samples.

Results

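The 55 genes described here drive or carry out cell division: cyclins and their kinases, the proteins that license and copy DNA, suppliers of deoxynucleotides, E2F transcription factors, inhibitors of the kinases, and the kinases, motors and checkpoint proteins of mitosis. They were taken by name from the gene symbols printed with the array probes, and the brightest probe was used for each gene. Of the 55 genes, 53 were measured among 16037 genes in all. The other two were dim: Ccne2, a cyclin of the G1/S transition, was above background on 2 of 32 arrays, and Aurkb, the kinase of the chromosomal passenger complex, on 13 arrays, of which 3 were WT and 10 Ifnar1-/-. Of the 53 genes, 47 were above background on all 32 arrays.

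The cells were bone marrow-derived macrophages (BMDMs), primary macrophages grown from mouse bone marrow in M-CSF, the growth factor that makes bone marrow precursors multiply and mature into macrophages. The marrow came from WT C57BL/6 mice or from Ifnar1-/- mice, in which a chain of the type I interferon receptor is missing. Neither the ages of the mice nor how many mice stood behind a culture was given in the sources used here, so the spread between the arrays of a group may be technical. BMDMs of each genotype were left untreated or were exposed for 6 h to LPS, to IFNβ, to zVAD, to LPS+zVAD, to IFNβ+zVAD, to LPS+zVAD+Nec-1 or to IFNβ+zVAD+Nec-1. TLR4 on macrophages senses LPS, a bacterial product, and IFNβ is a type I interferon. The caspase inhibitor zVAD was combined with either, and Nec-1 is an inhibitor of the kinase RipK1, so that LPS+zVAD and IFNβ+zVAD stimulate necroptosis in WT BMDMs and Nec-1 blocks it. Per the labels, 100 ng/mL of LPS and 1000 U/mL of IFNβ were used, and the text of the study gives other amounts for both. The 2 genotypes and 8 treatments made 16 groups of 2 arrays.

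As background, cells enter the cycle when D-type cyclins with Cdk4 release E2F factors from the retinoblastoma protein, and E2F then drives the genes for licensing and copying DNA. Genes for mitosis are switched on later, in G2, through promoter elements bound by the DREAM complex, B-Myb and FoxM1. Macrophages grown in M-CSF are still dividing, and both LPS and type I interferon are known to stop their proliferation.

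In textbook accounts the E2F site marks the promoters of early genes and the cell cycle homology region (CHR) those of late genes, and stretches of 7 promoters are shown as examples of members from these classes. The promoters are those of RefSeq on GRCm38.p6, from 250 bases before to 50 bases after the start of a gene, and 44 of the 55 genes had one. The letters TTTGAA (CHR), CCAAT (the NF-Y box) and TTTCCCGC, TTTGGCGC or TTTCGCGC (E2F) were searched on both strands, and in the stretches of Mcm5 and Mcm6 neighbouring E2F matches overlapped. The stretches run from 170 bases before to 30 bases after the start, on the strand of the gene, with the matches in capitals. The first 4 belong to genes of G2 and mitosis.
Top2a, chr11:99024160-99024359 (- strand): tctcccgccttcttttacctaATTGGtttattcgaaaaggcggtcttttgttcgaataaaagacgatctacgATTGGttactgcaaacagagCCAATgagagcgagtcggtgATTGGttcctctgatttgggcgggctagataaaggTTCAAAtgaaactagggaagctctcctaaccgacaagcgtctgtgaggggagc
Cdc20, chr4:118437314-118437513 (- strand): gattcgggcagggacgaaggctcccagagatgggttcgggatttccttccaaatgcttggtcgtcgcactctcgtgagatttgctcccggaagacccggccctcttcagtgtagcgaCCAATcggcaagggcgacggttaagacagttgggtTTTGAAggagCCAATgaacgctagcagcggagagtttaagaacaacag
Ccnb2, chr9:70421525-70421724 (- strand): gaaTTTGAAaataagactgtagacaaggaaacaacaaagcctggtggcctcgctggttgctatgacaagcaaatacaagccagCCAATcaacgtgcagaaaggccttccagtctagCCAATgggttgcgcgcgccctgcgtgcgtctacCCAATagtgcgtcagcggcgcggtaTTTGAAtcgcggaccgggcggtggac
Kif11, chr19:37376212-37376411 (+ strand): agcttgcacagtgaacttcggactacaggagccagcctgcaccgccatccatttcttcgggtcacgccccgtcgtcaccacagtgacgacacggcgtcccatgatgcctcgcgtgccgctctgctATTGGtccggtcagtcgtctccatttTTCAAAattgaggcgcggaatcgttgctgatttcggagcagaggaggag
The other three belong to genes of DNA replication.
Cdc6, chr11:98907981-98908180 (+ strand): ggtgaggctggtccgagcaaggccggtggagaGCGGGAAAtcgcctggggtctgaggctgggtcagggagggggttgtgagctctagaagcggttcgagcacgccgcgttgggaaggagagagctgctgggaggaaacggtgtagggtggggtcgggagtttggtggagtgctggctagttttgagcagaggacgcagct
Mcm5, chr8:75109339-75109538 (+ strand): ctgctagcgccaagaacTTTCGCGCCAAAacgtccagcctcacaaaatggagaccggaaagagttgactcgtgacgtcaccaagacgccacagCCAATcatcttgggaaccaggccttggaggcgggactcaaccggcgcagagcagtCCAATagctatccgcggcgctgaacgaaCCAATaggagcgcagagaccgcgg
Mcm6, chr1:128359676-128359875 (- strand): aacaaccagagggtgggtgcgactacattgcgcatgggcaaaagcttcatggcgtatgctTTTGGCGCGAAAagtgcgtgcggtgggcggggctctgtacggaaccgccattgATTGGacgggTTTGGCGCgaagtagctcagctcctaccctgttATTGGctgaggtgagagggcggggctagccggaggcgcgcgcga
Of the 19 mitosis genes with a promoter, 14 held TTTGAA, 15 held CCAAT and 0 held an E2F match. Of the 8 replication genes with a promoter, 1 held TTTGAA, 6 held CCAAT and 6 held an E2F match. Over the genes of the whole promoter table the shares were 20.2% for TTTGAA, 41.1% for CCAAT and 2.12% for the E2F letters, and over its 32851 promoters 17.9%, 37.4% and 1.84%. A match is a run of letters in this window and was not tested as a binding site.

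The arrays lay on 4 slides, and each slide held all 8 treatments of 1 genotype with 1 replicate number. WT replicate 1 arrays were scanned on day 1, WT replicate 2 arrays on day 2 and all Ifnar1-/- arrays on day 3. Genotype therefore cannot be told apart from slide and scan day in a comparison of levels between WT and Ifnar1-/- BMDMs. A change with treatment within a genotype stayed within slides and scan days. Each treatment also had its own place on the slide, and treatment and place cannot be told apart. The share of probes well above background was 55.6% to 78.3% on WT arrays and 45.4% to 62.1% on Ifnar1-/- arrays. The interferon target Ifit1 went with the labels, at 11.74 and 11.39 log2 on untreated WT arrays and at 2.29 and 2.24 on untreated Ifnar1-/- arrays. All 9 macrophage markers found on the array, Csf1r and Cd68 among them, were above background on all 32 arrays. The Ifnar1 probe was at 14.22 and 14.19 log2 on untreated WT arrays and at 11.90 and 11.87 on untreated Ifnar1-/- arrays. Over the 32 arrays it read 9.04 to 14.77, lowest on WT IFNβ+zVAD+Nec-1 replicate 1, against 12.71 on its partner. The WT LPS+zVAD arrays, at 12.38 and 11.18, lay within the Ifnar1-/- range of 11.13 to 12.44. The probe may lie outside the deleted part of the gene, so it was not used to check labels. The array Ifnar1-/- LPS+zVAD+Nec-1 replicate 2 went against its label. It had Tnf at 9.99 and Il6 at 4.94 log2, against 15.96 and 14.25 on replicate 1, and the array most like it was Ifnar1-/- IFNβ+zVAD+Nec-1 replicate 2 (r = 0.993 across genes, against 0.947 with its own replicate). Results that rest on it are given with and without it. The Ifnar1-/- zVAD replicates stood apart too, with Tnf at 12.86 and 10.12 log2 and Ifit1 at 8.21 and 2.23. On untreated Ifnar1-/- arrays Tnf was at 9.90 and 10.13. Replicate 2 of zVAD was most like untreated replicate 2 (r = 0.9964, against 0.9883 with its own replicate). Whether zVAD had acted in that culture was not tested.

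In untreated BMDMs the division genes stood higher without Ifnar1. Of the 53 genes, 21 were higher in Ifnar1-/- than in WT BMDMs and 0 were lower, where 5.4% of all genes were higher and 3.32% lower (limma, adjusted p under 0.05, the threshold for every count here). The median difference was 1.50 log2 over the members and 0.00 over all genes. In 42 of the 53 genes both Ifnar1-/- arrays lay above both WT arrays, which held for 30.8% of all genes. This comparison is between slides and scan days. Some markers of other cells moved with the genotype too. The summed level of Kit, Cd34, Flt3 and Gata2 was 8.23 to 10.88 log2 on WT arrays and 10.11 to 12.82 on Ifnar1-/- arrays, with 1 of these 4 genes above background on all arrays. Cd34 was the highest of them, at 8.91 and 10.36 log2 on untreated WT and 12.69 and 12.74 on untreated Ifnar1-/- arrays. Gata2 was at 4.64 and 5.34 in WT and at 8.27 and 8.22 in Ifnar1-/- BMDMs, and Kit at 3.82 and 3.69 against 4.44 and 4.87. Flt3, by contrast, was at 6.27 and 6.65 in WT and at 5.38 and 6.11 in Ifnar1-/- BMDMs. Of 8 markers of neutrophils and their precursors, 6 were above background on all arrays, and their sum was 12.94 to 14.28 log2 on WT and 13.3 to 14.54 on Ifnar1-/- arrays. Elane, the brightest of that list, was at 13.14 and 14.00 log2 on untreated WT arrays and at 13.71 and 12.51 on Ifnar1-/- arrays. Ctsg was at 7.69 and 7.48 against 7.32 and 7.67, Mpo at 6.70 and 8.13 against 8.23 and 8.39, and Prtn3 at 5.19 and 6.06 against 6.20 and 6.30. Ngp was at 6.83 and 8.36 against 11.15 and 11.4, Ltf at 8.01 and 9.61 against 11.46 and 11.5, and Camp at 7.63 and 8.98 against 10.45 and 10.81. Ly6g was lower, at 7.66 and 10.41 against 2.75 and 5.14. The 6 stromal markers summed to 8.83 to 10.39 log2 on WT arrays and to 10.87 to 12.63 on Ifnar1-/- arrays, with 4 of 6 above background on all arrays and Pdgfra on none. Their part in the difference was not tested, and a larger share of dividing cells cannot be told apart from more RNA of these genes per cell.

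The largest difference was in Rrm2, the regulated subunit of ribonucleotide reductase (probe on chromosome 12, 25398824 to 25398883, mm9). Rrm2 was at 10.30 and 9.99 log2 on the 2 untreated WT arrays and at 13.04 and 13.23 on the Ifnar1-/- arrays, so the groups were far apart. It was 2.99 log2 higher (standard error 0.39, adjusted p = 5.85e-05) in Ifnar1-/- BMDMs. Ccnd1, the D-type cyclin that growth factors induce, was at 11.50 and 11.63 in WT and at 13.99 and 14.05 in Ifnar1-/- BMDMs and was 2.46 log2 higher (standard error 0.43, adjusted p = 0.00107). The difference was 2.45 log2 for Cdc25c, a phosphatase that activates Cdk1 at mitosis (adjusted p = 0.0119), and 2.38 log2 for the spindle checkpoint kinase Ttk (adjusted p = 0.0165). Prc1, which bundles the microtubules of the midzone, was 2.31 log2 higher (standard error 0.49, adjusted p = 0.00525), and the checkpoint kinase Bub1 was 2.27 log2 higher (standard error 0.45, adjusted p = 0.00294). These genes had the largest differences among those called, so the lack of overlap between their genotypes is no separate result.

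By role, the higher genes were 12 of 22 mitosis genes, 4 of 10 replication genes (Mcm2, Mcm3, Mcm5 and Pcna), 2 of 7 cyclins (Ccnd1 and Ccne1), 2 of 6 kinases and phosphatases (Cdk1 and Cdc25c) and Rrm2 of the 3 genes of nucleotide supply. The E2F genes and the CDK inhibitors gave no call. E2f2 and the inhibitor Cdkn1b were the only members with both Ifnar1-/- arrays below both WT arrays, which held for 28.2% of all genes. Cdkn1b was at 12.99 and 13.10 log2 in WT and at 12.20 and 12.46 in Ifnar1-/- BMDMs. Several mitotic genes missed the threshold where the WT replicates lay far apart. Birc5 (survivin), for example, was at 13.38 and 11.71 log2 on the WT arrays and at 14.48 and 14.70 on the Ifnar1-/- arrays, a difference of 2.04 log2 (standard error 0.75, adjusted p = 0.109). The count of 21 went to 11 without untreated Ifnar1-/- replicate 1 or replicate 2 and to 6 without untreated WT replicate 2, and it was 16 with each array shifted to its 75th percentile. With the replicate number as a block, under which same-numbered arrays were paired, 32 genes were higher. Same-numbered arrays of the 2 genotypes lay on different slides and scan days, so this pairing has no known basis. A fit of only these 4 arrays called 13. The shares of all genes under these 2 fits are not given here.

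**Figure D1:**
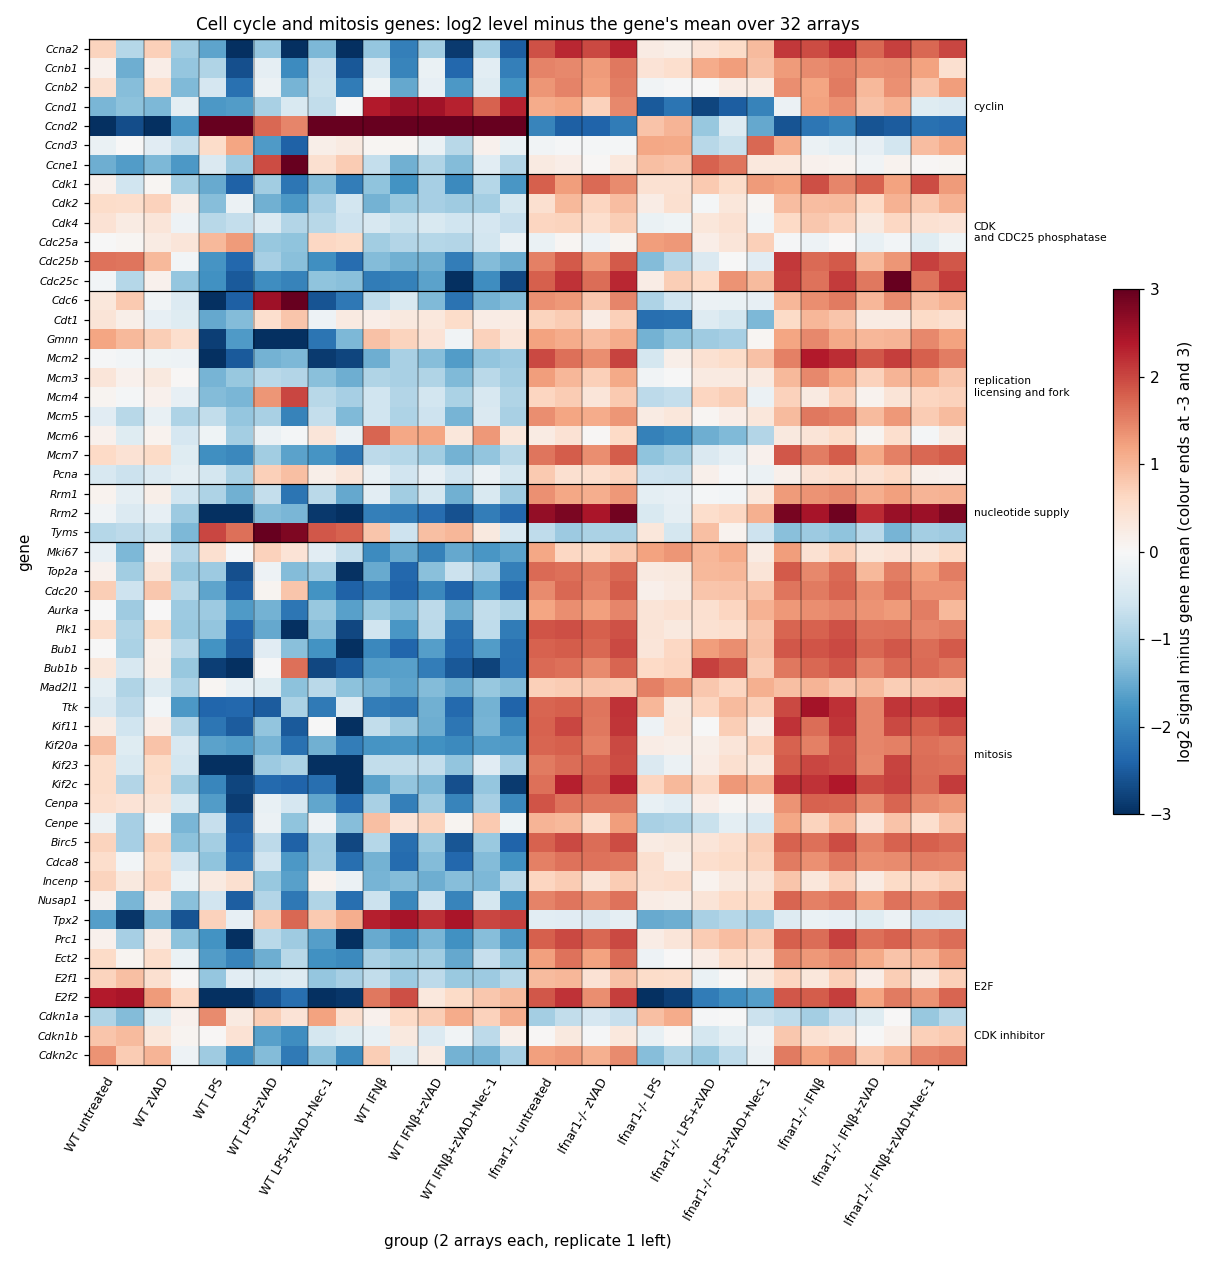
Log2 level of each of the 53 measured genes on each of the 32 arrays, as the difference from the mean of that gene over all arrays. Rows are genes grouped by role and columns are arrays grouped by genotype and treatment; most rows are higher on the Ifnar1-/- arrays, and the LPS columns are lower than the untreated columns of the same genotype in most rows.

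LPS lowered more division genes than it raised in both genotypes. In WT BMDMs 30 of 53 genes fell and 8 rose, where 25.6% of all genes fell and 16.1% rose, and the median change was -1.53 log2 for the members against -0.09 for all genes. In Ifnar1-/- BMDMs 26 fell and 4 rose, where 14.6% of all genes fell and 10.6% rose, with medians of -1.37 and -0.07 log2. On both slides of a genotype the same direction was seen for nearly every gene: in WT 43 genes were lower on both slides, 9 higher on both and 1 split, and in Ifnar1-/- BMDMs 45 were lower, 8 higher and 0 split. Over all genes, 16.4% split in WT and 16.8% in Ifnar1-/- BMDMs, so most genes of the array also kept 1 direction. Over the 47 genes above background on all arrays, 25 fell and 7 rose in WT BMDMs, and 25 fell and 3 rose in Ifnar1-/- BMDMs. With the arrays aligned at their 75th percentile instead of by quantiles, 27 members fell and 8 rose in WT BMDMs, and the higher genes went from 38.6% to 51.2% of all genes called.

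E2f2, an activating member of the E2F family, showed the largest fall in both genotypes (probe on chromosome 4, 135750562 to 135750621, mm9). It was at 12.16 and 12.23 log2 in untreated WT BMDMs and at 5.31 and 6.12 with LPS, and at 11.64 and 11.93 and then 6.64 and 6.95 in Ifnar1-/- BMDMs. The groups were separated by several log2 in either genotype. E2f2 fell by 6.48 log2 (standard error 0.69, adjusted p = 1.21e-06) in WT and by 4.99 log2 in Ifnar1-/- BMDMs (adjusted p = 8.9e-05). E2f1, its paralog, fell by 1.53 log2 (standard error 0.27, adjusted p = 0.000176) in WT BMDMs and changed by -0.44 log2 (standard error 0.27, adjusted p = 0.275) in Ifnar1-/- BMDMs.

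Genes that license and copy DNA fell together. All 10 fell with LPS in Ifnar1-/- BMDMs and 7 of 10 fell in WT BMDMs, where Mcm5, Mcm6 and Pcna did not pass the test. Cdc6, which loads the MCM helicase onto origins (probe on chromosome 11, 98782986 to 98783045, mm9), went from 6.76 and 7.21 log2 in untreated WT BMDMs to 2.85 and 3.97 with LPS, where neither array was well above background. It was at least 10.2-fold lower (adjusted p = 6.16e-06; the bound sets the untreated mean against the lowest signal that counted as above background, or the probe's own where that was higher). Cdc6 in Ifnar1-/- BMDMs went from 7.79 and 7.72 to 5.50 and 5.82. Gmnn, or geminin, which holds back licensing, went from 11.36 and 11.16 to 7.36 and 8.47 in WT BMDMs and fell by 3.34 log2 (standard error 0.35, adjusted p = 9.83e-07). Cdt1, the partner of Cdc6 that geminin binds, was at 14.12 and 14.21 log2 in untreated Ifnar1-/- BMDMs and at 11.20 and 11.20 with LPS, and fell by 2.96 log2 (standard error 0.36, adjusted p = 4.19e-05). Mcm7, a helicase subunit, fell by 2.82 log2 (standard error 0.39, adjusted p = 8.42e-05) in Ifnar1-/- BMDMs. Rrm2 fell in both genotypes, by 3.02 log2 in WT (adjusted p = 8.46e-06) and by 3.10 log2 in Ifnar1-/- BMDMs (adjusted p = 4.97e-05).

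Of the 22 mitosis genes, 12 fell with LPS in WT and 9 in Ifnar1-/- BMDMs. Cdc20, the activator of the anaphase-promoting complex, was at 11.56 and 10.21 log2 in untreated WT BMDMs and at 9.25 and 8.38 with LPS. Cdc20 in Ifnar1-/- BMDMs went from 12.26 and 12.56 to 10.99 and 11.08. Kif23, a motor of cytokinesis, went from 8.98 and 7.97 to 5.31 and 4.79 in WT BMDMs and fell by 3.43 log2 (standard error 0.42, adjusted p = 4.29e-06). For Cdc20 and Kif23 the LPS arrays lay below the untreated arrays in each genotype. The WT replicates, which differ in slide and scan day, stood apart from each other. Ccnb2, a cyclin of mitosis, was at 12.33 and 10.57 log2 on the untreated arrays and at 11.34 and 9.62 with LPS. Its difference was nearly the same on both slides but the levels were not. Ccnb2, Ccnb1, Top2a (topoisomerase II), Plk1 and Aurka (mitotic kinases) and Birc5 were not called with LPS in WT BMDMs. With the slide as a block, under which arrays of the same slide were paired, these 6 were called lower, and the counts of members called went from 38 to 48 in WT and from 30 to 45 in Ifnar1-/- BMDMs, where a fit of only the LPS and untreated arrays called 47. Under this block the shares of all genes rose as well, to 32.4% lower and 21.7% higher in WT. In Ifnar1-/- BMDMs they were 22.5% lower and 16.3% higher.

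The CDC25 phosphatases, which activate the CDKs, moved apart from each other. Cdc25b fell by 3.69 log2 (standard error 0.51, adjusted p = 1.53e-05) in WT BMDMs and by 2.77 log2 in Ifnar1-/- BMDMs (adjusted p = 0.000659). Cdc25a, which acts at G1/S, rose with LPS, from 10.39 and 10.44 to 11.37 and 11.68 log2 in WT and from 10.20 and 10.45 to 11.65 and 11.69 in Ifnar1-/- BMDMs, with no overlap. Among the kinases, Cdk1, Cdk2 and Cdk4 fell in WT BMDMs, and Cdk4 fell in Ifnar1-/- BMDMs.

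The 8 genes that rose with LPS in WT BMDMs were Ccnd2, Ccnd3, Ccne1, Cdc25a, Tyms, Cdkn1a, Mki67 and Tpx2, and the 4 in Ifnar1-/- BMDMs were Ccnd2, Ccnd3, Cdc25a and Cdkn1a. Ccnd2, a D-type cyclin, rose most (probe on chromosome 6, 127098696 to 127098755, mm9). It was at 5.26 and 6.00 log2 in untreated WT BMDMs and at 13.15 and 12.84 with LPS, and rose by 7.37 log2 (standard error 0.43, adjusted p = 2.09e-09). In Ifnar1-/- BMDMs it was at 6.69 and 6.22 and at 9.52 and 9.70 with LPS, and rose by 3.15 log2 (standard error 0.43, adjusted p = 8.42e-05). Cdkn1a, which encodes the CDK inhibitor p21, rose by 1.95 log2 in WT (adjusted p = 9.18e-05) and by 1.89 log2 in Ifnar1-/- BMDMs (adjusted p = 0.00038). Its other two probes had changes of -0.19 and 0.63 log2 in WT BMDMs, so the rise rests on the brightest probe. Mki67, the usual marker of cycling cells, went from 12.26 and 11.17 to 12.98 and 12.46 in WT BMDMs, where LPS lowered most of the other mitosis genes. Both Mki67 and Ccne1 were near the threshold. Without WT untreated replicate 2 the change of Mki67 was 0.47 log2 (adjusted p = 0.451) and without WT LPS replicate 1 it was 0.75 log2 (adjusted p = 0.241), and it kept its call in 10 of 14 alternative fits. Ccne1, which rose by 0.82 log2 (adjusted p = 0.0442), kept its call in 5 of 14, and its adjusted p was 0.35 without WT LPS replicate 1, 0.0794 without WT untreated replicate 1 and 0.201 without WT untreated replicate 2. Mki67 in Ifnar1-/- BMDMs was at 13.66 and 13.12 untreated and at 13.72 and 13.82 with LPS, a change of 0.38 log2 (standard error 0.37, adjusted p = 0.533).

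The response to LPS differed between the genotypes in 4 genes, by a test of the difference of the changes. Ccnd2, Tpx2, Ccnd1 and Pcna all had the lower change in Ifnar1-/- BMDMs, and over all genes 3.62% had the lower and 3.01% the higher change in Ifnar1-/- BMDMs. Ccnd1 was at 11.50 and 11.63 log2 in untreated WT BMDMs and at 11.15 and 11.19 with LPS, whereas in Ifnar1-/- BMDMs it went from 13.99 and 14.05 to 10.34 and 10.67. Its change in Ifnar1-/- BMDMs was lower than that in WT by 3.12 log2 (standard error 0.61, adjusted p = 0.00369). Tpx2, a spindle assembly factor that activates Aurora A, went from 9.61 and 8.33 to 11.94 and 11.02 in WT and from 10.93 and 10.91 to 9.74 and 9.79 in Ifnar1-/- BMDMs, in opposite directions. The difference of the changes was -3.67 log2 for Tpx2 and -4.21 log2 for Ccnd2 (adjusted p = 0.000582 and 0.000375). Without WT LPS replicate 2 the count of 4 was 7, without both Ifnar1-/- arrays of LPS+zVAD+Nec-1 it was 8, and with the slide as a block, arrays paired by slide, it was 9: 6 lower and 3 higher in Ifnar1-/- BMDMs, the higher being E2f1, Bub1b and Kif23.

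**Figure D2:**
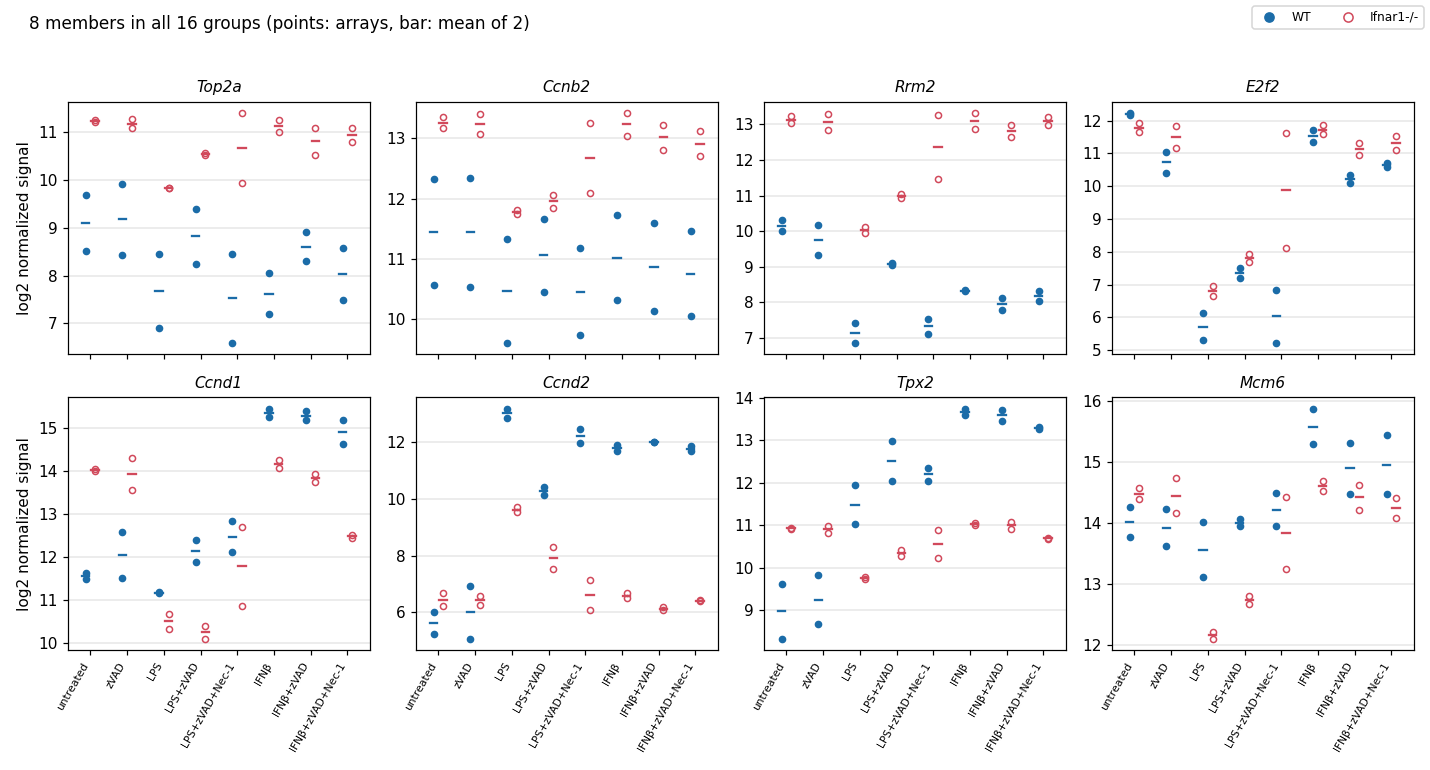
Log2 level, quantile-normalized, of 8 genes (Top2a, Ccnb2, Rrm2, E2f2, Ccnd1, Ccnd2, Tpx2 and Mcm6) on each array, by treatment and genotype; each point is 1 array and each short bar the mean of 2 arrays. E2f2 was low in the LPS groups of both genotypes, with WT LPS arrays at 5.31 and 6.12 log2 against 12.16 and 12.23 untreated, and Ccnd1 fell with LPS in Ifnar1-/- BMDMs, from 13.99 and 14.05 to 10.34 and 10.67.

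IFNβ also lowered division genes in WT BMDMs, and no member was called in Ifnar1-/- BMDMs. In WT BMDMs 22 genes fell and 5 rose, where 22.6% of all genes fell and 13.5% rose, with a median change of -0.92 log2 for the members and -0.18 for all genes. With the shift to the 75th percentile 19 fell and 6 rose. In Ifnar1-/- BMDMs limma called 0 members and 0% of all genes, with 0 members and 255 genes at an unadjusted p under 0.05, and the changes of the members lay between -0.45 and 0.57 log2. The difference of the 2 changes, Ifnar1-/- minus WT, was tested directly. It was positive for 14 members (10.8% of all genes) and negative for 4 (8.47% of all genes). The median difference was 1.07 log2 over the members and 0.18 over all genes, and with the shift to the 75th percentile the split was 12 and 5. The count of 18 was 8 without untreated Ifnar1-/- replicate 1 and 10 without untreated Ifnar1-/- replicate 2, Ifnar1-/- IFNβ replicate 2 or WT IFNβ replicate 2, and it was 11 without untreated WT replicate 1. With the slide as a block, arrays paired by slide, it was 32, and 21.2% of all genes had a positive and 13% a negative difference.

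Cdc25b showed the largest fall with IFNβ (probe on chromosome 2, 131023911 to 131023970, mm9). It was at 11.92 and 11.89 log2 in untreated WT BMDMs and at 8.99 and 8.85 with IFNβ, while in Ifnar1-/- BMDMs it was at 11.80 and 12.12 and 11.99 and 12.13. It fell by 2.99 log2 (standard error 0.51, adjusted p = 0.000152) in WT BMDMs, and the change in Ifnar1-/- BMDMs was higher than that by 3.08 log2 (adjusted p = 0.00534). All 6 kinases and phosphatases of the list fell with IFNβ in WT BMDMs. Cdk2, the partner of cyclins E and A, went from 9.06 and 9.02 to 7.10 and 7.37 log2. Cdc20 went from 11.56 and 10.21 to 8.76 and 8.44 in WT BMDMs and fell by 2.29 log2 (standard error 0.47, adjusted p = 0.000873), while its Ifnar1-/- arrays were at 12.38 and 12.57 with IFNβ. Among the replication genes Mcm2, Mcm3, Mcm4 and Mcm7 fell and Mcm6 rose, from 14.27 and 13.78 to 15.87 and 15.29 log2.

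Of the 3 D-type cyclins, Ccnd1 and Ccnd2 rose with IFNβ in WT BMDMs and Ccnd3 was not called (13.12 and 13.30 log2 untreated, 13.38 and 13.38 with IFNβ). Ccnd1 (probe on chromosome 7, 152116202 to 152116261, mm9) went from 11.50 and 11.63 log2 to 15.25 and 15.44 and rose by 3.78 log2 (standard error 0.43, adjusted p = 1.9e-06), above its level in Ifnar1-/- BMDMs, which was 14.07 and 14.25. Ccnd2 went from 5.26 and 6.00 to 11.90 and 11.69 and rose by 6.16 log2 (standard error 0.43, adjusted p = 6.42e-09). Tpx2 went from 9.61 and 8.33 to 13.59 and 13.73 and rose by 4.69 log2 (standard error 0.40, adjusted p = 5.6e-08), and its second probe had a change of 1.92 log2. Neither Ccnd2 nor Tpx2 was called with IFNβ in Ifnar1-/- BMDMs, where Ccnd2 was at 6.51 and 6.68 and Tpx2 at 11.05 and 11.01 log2. These 3 genes and Cdkn1a were the 4 with the lower change in Ifnar1-/- BMDMs. The Cdkn1a call depended on the probe. In the limma fit on the mean of its probes, the adjusted p was 0.52 for this difference. For its change with IFNβ in WT BMDMs it was 0.184. E2f2, the gene that fell most with LPS, was at 11.35 and 11.71 log2 with IFNβ in WT BMDMs, a change of -0.66 log2 (standard error 0.69, adjusted p = 0.512), and Gmnn was at 11.07 and 10.84, a change of -0.31 log2 (standard error 0.35, adjusted p = 0.558). The changes with LPS and with IFNβ share the untreated arrays.

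Other mitosis genes passed the test with both stimuli, with 1 of them or with neither. Kif20a, a motor of cytokinesis, was at 10.53 and 9.26 log2 untreated, at 8.02 and 7.94 with LPS and at 7.86 and 7.87 with IFNβ in WT BMDMs, and it fell with both. Ect2, which activates RhoA at the cleavage furrow, also fell with both, from 9.15 and 8.65 to 6.90 and 6.59 with LPS and to 7.61 and 7.43 with IFNβ. Cdca8 and Incenp are both subunits of the chromosomal passenger complex. Cdca8 fell with both stimuli, whereas Incenp was at 14.08 and 13.71 log2 untreated, at 13.69 and 13.89 with LPS, a change of -0.11 log2 (standard error 0.26, adjusted p = 0.797), and at 12.03 and 12.11 with IFNβ, where it fell by 1.83 log2 (adjusted p = 2.87e-05). Mad2l1, a spindle checkpoint protein, was at 11.24 and 10.64 untreated, at 11.59 and 11.32 with LPS and at 10.13 and 9.95 with IFNβ, and it passed the test with IFNβ and not with LPS. Cenpe, a kinetochore motor, did not pass the test with IFNβ and read higher there, at 12.20 and 11.72 against 11.12 and 10.31 untreated, a change of 1.24 log2 (standard error 0.60, adjusted p = 0.121). The microtubule depolymerase Kif2c was at 6.89 and 5.45 untreated and at 4.38 and 3.59 with LPS in WT BMDMs, where it fell. Only 1 of these 2 LPS arrays was above background for Kif2c. Nusap1, a spindle protein, was at 9.59 and 8.08 untreated and at 8.87 and 6.97 with LPS, a change of -0.91 log2 (standard error 0.71, adjusted p = 0.338). Outside mitosis, Ccna2 (cyclin A2) went from 10.56 and 9.03 to 8.31 and 6.88 log2 with LPS in WT BMDMs, and Rrm1, the partner of Rrm2, from 11.27 and 10.90 to 10.23 and 9.72. Cdkn2c, which encodes the CDK inhibitor p18, went from 10.95 and 10.35 to 8.53 and 7.68 in WT and from 10.81 and 10.88 to 8.32 and 8.68 in Ifnar1-/- BMDMs, where it fell in both, while with IFNβ in WT BMDMs it was at 10.32 and 9.19, a change of -0.89 log2 (standard error 0.56, adjusted p = 0.241). Ccna2 and Rrm1 passed the test with LPS in WT BMDMs and not with IFNβ. A fit with the slide as a block, which pairs arrays, called Ccna2 lower with IFNβ (adjusted p = 0.000122) and Cenpe higher (adjusted p = 0.00383), and with LPS it called Mad2l1 higher (adjusted p = 0.00834) and Nusap1 lower (adjusted p = 0.00141). The difference between the changes with LPS and with IFNβ was not tested for any of these genes.

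**Figure D3:**
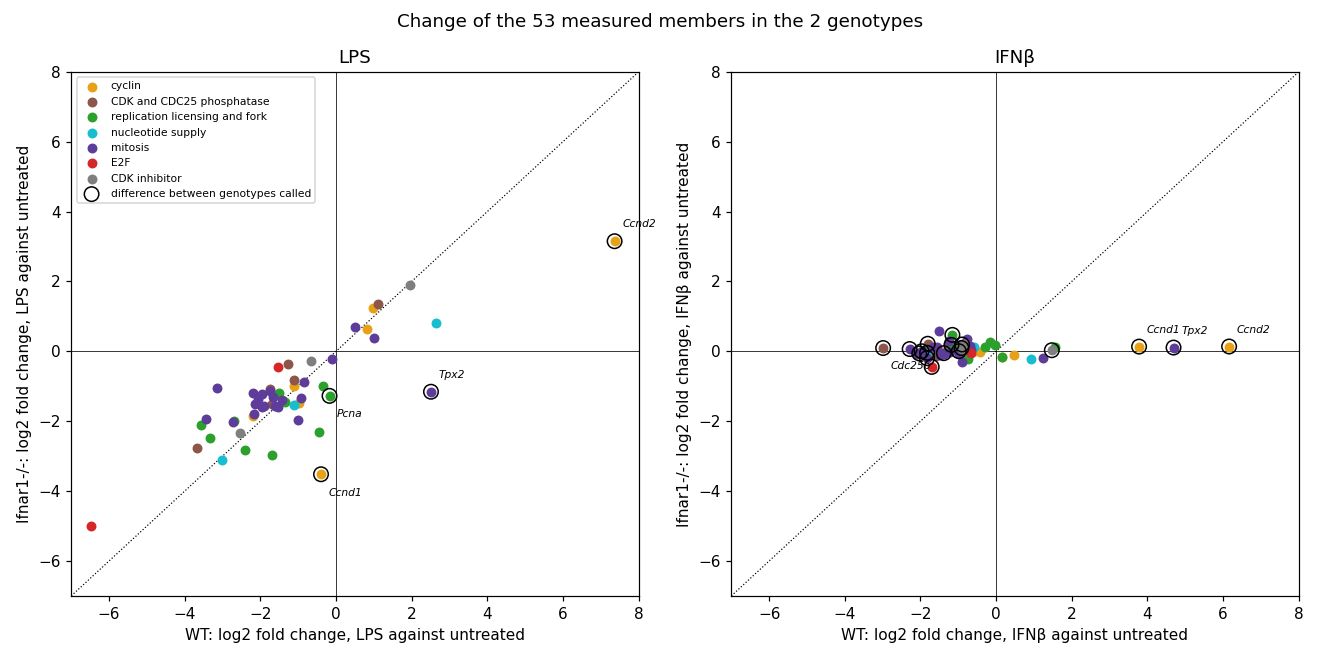
Log2 fold change of each of the 53 genes against untreated cells in WT BMDMs (horizontal axis) and in Ifnar1-/- BMDMs (vertical axis), 1 panel per treatment, with the genes of the largest difference named and genes not above background plotted at their measured values. With LPS most points lie below 0 on both axes, and with IFNβ the points spread along the horizontal axis while the Ifnar1-/- values stay between -0.45 and 0.57 log2.

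zVAD alone called 0 members in WT BMDMs, where 0.00624% of all genes were called, and 4 members and 897 genes had an unadjusted p under 0.05. In Ifnar1-/- BMDMs it called 0 members and 0% of all genes (0 members and 60 genes at an unadjusted p under 0.05). The difference of the changes gave 0 members and 0% (0 members and 165 genes at an unadjusted p under 0.05). The Ifnar1-/- zVAD replicates stood apart, as described with the arrays. With zVAD there, 9 members were lower on both slides, 7 were higher on both and 37 split, as did 51.4% of all genes. Whether zVAD had acted in the culture of replicate 2 was not tested. The 0 calls that rest on these arrays therefore cannot show that zVAD had no effect in Ifnar1-/- BMDMs. Added to IFNβ in WT BMDMs, zVAD called 0 members and 0% of all genes (3 members and 639 genes at an unadjusted p under 0.05). Relative to untreated WT BMDMs, IFNβ+zVAD lowered 28 members and raised 5, where 24.1% of all genes fell and 14.2% rose. The median was -1.16 log2 for the members and -0.17 for all genes, and with the shift to the 75th percentile 22 fell and 7 rose. With IFNβ+zVAD in Ifnar1-/- BMDMs the test called 0 members and 0.00624% of all genes, with 1 member and 595 genes at an unadjusted p under 0.05. The difference of the changes, Ifnar1-/- minus WT, was positive for 12 members (11.4% of all genes) and negative for 5 (8.36% of all genes). With the shift to the 75th percentile these counts were 7 and 5. The total of 17 was 6 without Ifnar1-/- IFNβ+zVAD replicate 2, 7 without untreated Ifnar1-/- replicate 1 or WT IFNβ+zVAD replicate 2, 9 without untreated WT replicate 1 and 10 without untreated Ifnar1-/- replicate 2, and it was 33 with the slide as a block that pairs arrays. Adding Nec-1 to IFNβ+zVAD in WT BMDMs called 0 members and 0% of all genes (2 members and 621 genes at an unadjusted p under 0.05).

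The D-type cyclins Ccnd1 and Ccnd2 and the spindle factor Tpx2 were high with IFNβ+zVAD in WT BMDMs. Ccnd2 was at 12.00 and 11.97 log2, Ccnd1 at 15.38 and 15.18 and Tpx2 at 13.46 and 13.72. With Nec-1 added, Ccnd2 was at 11.85 and 11.67, Ccnd1 at 14.63 and 15.19 and Tpx2 at 13.25 and 13.31. All of these arrays lay above the untreated arrays of the same genes.

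Adding zVAD to LPS in WT BMDMs changed 22 members, in both directions. Relative to LPS, 14 genes rose and 8 fell, where 12.9% of all genes rose and 21.7% fell, and the median was 0.48 log2 for the members and -0.04 for all genes. The rises were in 5 replication genes (Cdc6, Cdt1, Mcm2, Mcm4 and Pcna), 6 mitosis genes (Cdc20, Bub1, Bub1b, Kif23, Cenpa and Prc1), Ccne1, Rrm2 and Tyms. The falls were in Ccnd2, Ccnd3, Cdc25a, Cdk2, Gmnn, Mad2l1, Incenp and Cdkn1b. Relative to untreated WT BMDMs, LPS+zVAD left 27 members lower and 9 higher, where 33.2% of all genes were lower and 18.1% higher, with medians of -1.07 and -0.17 log2. With the shift to the 75th percentile 22 were lower and 10 higher.

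Cdc6 moved furthest. With LPS its arrays were at 2.85 and 3.97 log2, not well above background, and with LPS+zVAD they were at 8.97 and 10.43, above the untreated arrays at 6.76 and 7.21. It was at least 66.7-fold higher with LPS+zVAD than with LPS (adjusted p = 3.07e-08). Its second, dimmer probe had a change of 4.76 log2 and was above background on 17 arrays. Bub1b, a kinase-like protein of the spindle checkpoint (probe on chromosome 2, 118466830 to 118466889, mm9), went from 5.76 and 4.95 to 8.53 and 10.21 log2 and rose by 4.01 log2 (standard error 0.46, adjusted p = 2.95e-06). Ccne1, or cyclin E1, which drives entry into S phase, went from 10.56 and 9.94 to 12.95 and 14.19 and rose by 3.32 log2 (standard error 0.32, adjusted p = 4.88e-07), above its untreated level of 9.54 and 9.31. Mcm4 (probe on chromosome 16, 15624372 to 15624431, mm9) went from 10.77 and 10.68 to 13.38 and 14.05 and rose by 2.99 log2 (standard error 0.27, adjusted p = 2.51e-07). These 4 genes had the largest rises of the list, so the separation of their LPS and LPS+zVAD arrays is no separate result. The rise was uneven within complexes: with LPS+zVAD Mcm4 was above its untreated level of 12.14 and 11.99, while Mcm5 was at 9.96 and 8.93 against 10.19 and 9.78 with LPS and 10.58 and 10.09 untreated, and Mcm3 at 11.55 and 11.49 against 10.97 and 11.25 and 12.73 and 12.50.

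Among the genes that fell, Ccnd3 went from 13.87 and 14.51 to 11.63 and 10.89 log2 and fell by 2.93 log2 (standard error 0.26, adjusted p = 2.31e-07), and its second probe fell by as much, with a change of -2.95 log2. Ccnd2 went from 13.15 and 12.84 to 10.39 and 10.13 and fell by 2.73 log2 (standard error 0.43, adjusted p = 8.18e-05), still far above untreated cells. Cdkn1b, which encodes the CDK inhibitor p27, went from 12.19 and 12.60 to 10.53 and 10.30 and was below both the LPS and the untreated arrays. Cdc25a went from 11.37 and 11.68 to 9.25 and 9.18. Cdkn1a against untreated cells depended on the probe: the brightest probe rose by 1.69 log2 (adjusted p = 0.000212), the other two had changes of -1.39 and 0.17 log2, and the mean of its probes changed by -0.61 log2 (adjusted p = 0.151). With the slide as a block, which pairs arrays by slide, the count of 22 went to 33 and all 22 were among them. Under this block 19.9% of all genes rose and 27.9% fell. In a fit of only these 4 arrays the count was 14.

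With Nec-1 added to LPS+zVAD, 14 members fell and 6 rose in WT BMDMs, where 9.86% of all genes fell and 18.5% rose, and the median was -0.31 log2 for the members and 0.02 for all genes. Cdc6 was at 3.83 and 4.29 log2 with Nec-1, not well above background, and was at least 33.3-fold lower than with LPS+zVAD (adjusted p = 1.35e-07). Bub1b was at 5.85 and 6.06 and fell by 3.42 log2 (standard error 0.46, adjusted p = 2.58e-05). Mcm4 was at 11.22 and 11.06 and fell by 2.57 log2 (standard error 0.27, adjusted p = 2.42e-06), and Ccne1 was at 11.49 and 11.76, between its LPS and LPS+zVAD levels, and fell by 1.95 log2 (adjusted p = 0.000155). Ccnd3 was at 13.50 and 13.59 and rose by 2.28 log2 (standard error 0.26, adjusted p = 5.58e-06). The LPS+zVAD arrays enter both this comparison and that with LPS, so a deviation of these arrays would move both, in opposite directions. The levels side by side show where the treatments stood. Cdc20 was at 9.25 and 8.38 with LPS, at 10.91 and 11.66 with LPS+zVAD and at 9.05 and 8.41 with Nec-1 added. Cdkn1b was at 12.19 and 12.60, 10.53 and 10.30 and 11.63 and 11.78 in the same order, and Mki67 at 12.98 and 12.46, 13.21 and 12.91 and 12.19 and 11.78. For Cdkn1b the LPS+zVAD arrays were the lowest of the 3 pairs, and for Mki67 the LPS and LPS+zVAD arrays overlapped. The count of 20 was 13 without WT LPS+zVAD+Nec-1 replicate 2, and a fit of only these 4 arrays called 0.

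**Figure D4:**
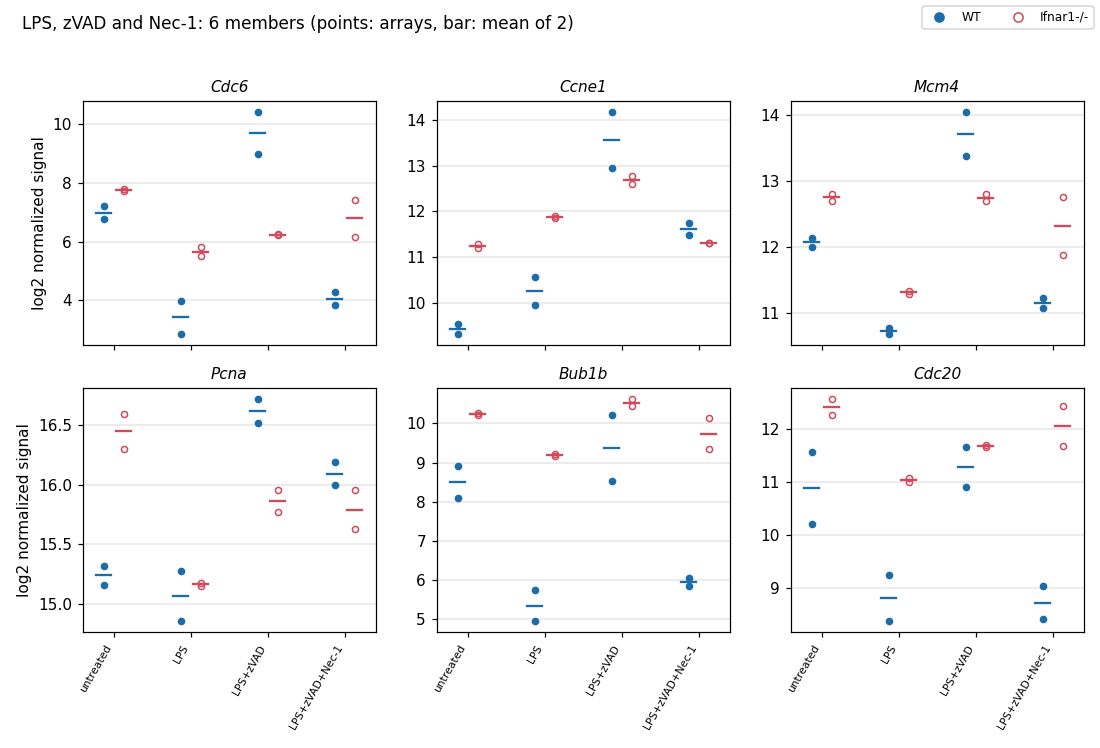
Log2 level of genes of the list on the untreated, LPS, LPS+zVAD and LPS+zVAD+Nec-1 arrays of each genotype, 1 point per array. In WT BMDMs Cdc6 was at 8.97 and 10.43 log2 with LPS+zVAD, above both the LPS and the LPS+zVAD+Nec-1 arrays; Ifnar1-/- LPS+zVAD+Nec-1 replicate 2, which went against its label, is shown with the rest.

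Adding zVAD to LPS in Ifnar1-/- BMDMs changed 6 members. Relative to LPS 3 rose (Cdt1, Mcm4 and Pcna) and 3 fell (Ccnd2, Ccnd3 and Cdc25a), where 4.75% of all genes rose and 3.77% fell. At 5.66% of the members in either direction, these counts were near the shares of all genes. The median was 0.28 log2 over the members. Cdc6 went from 5.50 and 5.82 to 6.25 and 6.22 log2, a change of 0.58 log2 (standard error 0.45, adjusted p = 0.533), and Mcm4 went from 11.28 and 11.33 to 12.69 and 12.81 and rose by 1.44 log2 (standard error 0.27, adjusted p = 0.00233). Cdt1 went from 11.20 and 11.20 to 13.06 and 12.92 and rose by 1.79 log2 (standard error 0.36, adjusted p = 0.0041). Bub1b went from 9.18 and 9.22 to 10.62 and 10.44, a change of 1.33 log2 (standard error 0.46, adjusted p = 0.0801). The count of 6 was 2 without Ifnar1-/- LPS+zVAD replicate 1, 12 with the slide as a block that pairs arrays and 15 in a fit of only these 4 arrays. Under the slide block 9.01% of all genes rose and 10.4% fell.

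The difference of these changes between the genotypes was tested in a comparison added after values had been seen. It was downward in Ifnar1-/- BMDMs for 4 members (0.885% of all genes), Cdc6, Bub1b, Ccne1 and Mcm4, and upward for 3 (2.71% of all genes), Cdkn1b, Incenp and Cdc25a. For Cdc6, which was not well above background with LPS in WT BMDMs, the change in Ifnar1-/- BMDMs was lower by at least 5.48 log2 (adjusted p = 0.000188), a bound set as before, and for Bub1b it was lower by 2.69 log2 (standard error 0.65, adjusted p = 0.0263). The 7 calls went to 2 without Ifnar1-/- LPS replicate 1, Ifnar1-/- LPS+zVAD replicate 2, WT LPS replicate 2 or WT LPS+zVAD replicate 2, to 3 without Ifnar1-/- LPS replicate 2 or Ifnar1-/- LPS+zVAD replicate 1, and to 11 with the slide as a block that pairs arrays. A fit of only these 8 arrays called 0 of them.

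Relative to untreated Ifnar1-/- BMDMs, LPS+zVAD lowered 20 members and raised 3, where 18.2% of all genes fell and 10.8% rose, and the median was -1.03 log2 against -0.11 for all genes. Of the 10 replication genes 9 fell, all but Mcm4, and of the 22 mitosis genes 4 fell. E2f2 went to 7.68 and 7.92 log2 and fell by 3.99 log2 (standard error 0.69, adjusted p = 0.000374). Without 1 of the 4 arrays the total of 23 was between 9 and 15: it was 9 without Ifnar1-/- LPS+zVAD replicate 1, 15 without its replicate 2, 14 without untreated Ifnar1-/- replicate 1 and 13 without untreated replicate 2. It was 37 with the slide as a block that pairs arrays (26.8% of all genes lower and 16.5% higher). A fit of only these 4 arrays gave 38. The change with LPS+zVAD differed between the genotypes in 16 members. It was lower in Ifnar1-/- BMDMs for 10 (4.86% of all genes) and higher for 6 (11.4% of all genes), and the median difference over the members was 0.02 log2. With the shift to the 75th percentile the split was 10 lower and 5 higher. The largest difference was in Ccnd1, at 11.89 and 12.41 log2 in WT and 10.11 and 10.40 in Ifnar1-/- BMDMs, with a change that was lower by 4.35 log2 (standard error 0.61, adjusted p = 0.000111). Replication genes made up 5 of the 10, namely Cdc6, Cdt1, Mcm4, Mcm6 and Pcna. The count of 16 was 10 without Ifnar1-/- LPS+zVAD replicate 2.

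Nec-1 added to LPS+zVAD in Ifnar1-/- BMDMs gave 7 members higher and 3 lower, where 11.9% of all genes were higher and 7.58% lower, and this comparison holds the array that went against its label. With the shift to the 75th percentile 5 were higher and 3 lower. Without that array 1 member was higher and 2 were lower, and without the other replicate 19 members were called. E2f2 was at 8.12 and 11.63 log2 on the pair, against 7.68 and 7.92 with LPS+zVAD, and Gmnn at 10.24 and 11.37 against 9.10 and 9.19, so that replicate 2 was near the untreated levels of 11.64 and 11.93 and 11.39 and 11.29. Ccne1 was lower on both arrays and was called, going from 12.77 and 12.60 to 11.32 and 11.31, and Ccnd3 was above the LPS+zVAD arrays on both, at 15.04 and 14.44 against 12.50 and 12.66. Leaving out Ifnar1-/- LPS+zVAD replicate 1 gave 2 calls and leaving out its replicate 2 gave 4. With the slide as a block, which pairs arrays, there were 25 calls (21.4% of all genes higher and 14% lower), and a fit of only these 4 arrays gave 0.

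Within each treatment the genotypes kept their order in most members. Both Ifnar1-/- arrays lay above both WT arrays in 39 to 45 of the 53 genes in each of the 8 treatments, where this held for 28.2% to 43.5% of all genes. With LPS+zVAD+Nec-1 the count was 42 (36.9% of all genes), and replicate 1 alone, without the Ifnar1-/- array that went against its label, lay above both WT arrays in 43 (46.9% of all genes). Both Ifnar1-/- arrays lay below both WT arrays in 2 to 11 members, where this held for 23.8% to 28.8% of all genes. Some exceptions recurred. Tpx2, Ccnd2 and Tyms, which makes thymidylate, were lower in Ifnar1-/- BMDMs in 6 treatments, every one that held LPS or IFNβ. Cdkn1a (brightest probe) was lower in 6 as well, with zVAD alone among them and LPS alone not. Ccnd1 and Mcm6 were lower in several. On replicate 1 alone with LPS+zVAD+Nec-1, 9 members lay below both WT arrays (36.3% of all genes), Tpx2, Ccnd2, Tyms and Cdkn1a among them. With IFNβ, for example, Tyms was at 9.80 and 8.34 log2 in WT and 7.88 and 7.75 in Ifnar1-/- BMDMs. These levels compare slides and scan days, and the cause was not tested.

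A second list held 84 further genes of the cell cycle (checkpoint kinases, origin and fork proteins, kinetochore proteins and regulators such as Foxm1 and Mybl2), of which 81 were measured. With LPS 43 fell and 5 rose in WT, where 25.6% of all genes fell and 16.1% rose, and 44 fell and 2 rose in Ifnar1-/- BMDMs, where the shares were 14.6% and 10.6%. The medians were -1.32 and -1.38 log2. With IFNβ 27 fell and 8 rose in WT BMDMs (22.6% and 13.5% of all genes) and 0 were called in Ifnar1-/- BMDMs. In untreated cells 31 were higher and 1 lower in Ifnar1-/- BMDMs (5.4% and 3.32% of all genes). With zVAD added to LPS, 13 rose and 8 fell in WT BMDMs (12.9% and 21.7% of all genes), and 3 rose and 0 fell in Ifnar1-/- BMDMs (4.75% and 3.77% of all genes), so the rises of this list were near the share of all genes. Foxm1, the transcription factor of the late genes, was higher by 1.94 log2 in WT BMDMs with LPS+zVAD than with LPS alone (adjusted p = 0.00326), and its change with LPS was -0.57 log2 (adjusted p = 0.37).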

How the data were processed

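The 53 genes were measured on 32 Agilent 1-colour mouse arrays of 55681 probes, 2 for each of 16 groups of BMDMs, and precision was limited by having 2 arrays a group. The deposited scanner files hold spot intensity that the authors' Feature Extraction 11.5.1.1 had background-subtracted (no spot was saturated). The authors also deposited a table of normalized log2 values, used here as an alternative. Outlier spots (130 to 499 per array) were left out, the log2 intensities were quantile-normalized, and spots of a probe were averaged. A probe was kept if well above background on at least 50% of arrays (21465 of 33140 probes with a gene symbol), and the brightest probe stood for its gene. Probe positions are those of the scanner files (mm9).

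Groups were compared with limma 3.58.1 in R 4.3.3, in 1 fit of 16 group means with 16 residual degrees of freedom, over 16037 genes with Benjamini-Hochberg adjustment. Gene and comparison lists were chosen with earlier results of these data known. Any member could be named, with full statistics for up to 6 called genes per comparison. Another 10 settings were tried, beside leaving out arrays. In simulated arrays with the spread of the real genes, 200 of 16037 genes were changed in WT LPS against untreated. There limma called 68 of the 100 genes given a change of 2 log2, 24 of the 100 given 1 log2, and 5 unchanged genes. The simulated noise was independent between arrays and far fewer genes changed than were called in the real comparison. These rates therefore do not carry over to the real data.

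Arrays with the same replicate number share a slide within a genotype per the file headers, which pairs them: deviations correlated at 0.32 to 0.67 over 28 WT pairs of groups and at 0.17 to 0.57 over 28 Ifnar1-/- pairs, against 0.00 to 0.33 over 64 pairs across genotypes.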

Additional observations from a re-analysis of the deposited data

Results flagged for a closer look

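Each value below is the change in Ifnar1-/- BMDMs minus the change in WT BMDMs, in log2, and was singled out because the test of this difference passed the threshold (limma, adjusted p under 0.05). The causes were not tested.

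With LPS the difference was called in 4 members: Ccnd2 (-4.21), Tpx2 (-3.67), Ccnd1 (-3.12) and Pcna (-1.10). With IFNβ it was called in 18, and the 6 largest were Ccnd2 (-6.02), Tpx2 (-4.58), Ccnd1 (-3.65), Cdc25b (3.08), Cdc20 (2.35) and Cdk2 (2.02). With LPS+zVAD it was called in 16, led by Ccnd1 (-4.35), Cdc6 (-4.24), Tpx2 (-4.12), Ccnd2 (-3.18), Ccne1 (-2.70) and Tyms (-2.30). With IFNβ+zVAD it was called in 17, led by Ccnd2 (-6.69), Tpx2 (-4.55), Ccnd1 (-3.90), Cdc25b (2.85), Cdc6 (2.20) and Cdc20 (2.17). Cdc6 was above background on 1 of the 2 WT IFNβ+zVAD arrays. Cdc25c was above background on 0 of these 2 arrays and was left out of the ranking, with a difference of at least 1.50 (adjusted p = 0.045). These comparisons share the untreated arrays. From LPS to LPS+zVAD it was called in 7, led by Bub1b (-2.69), Ccne1 (-2.51), Cdkn1b (1.65), Mcm4 (-1.55), Incenp (1.48) and Cdc25a (1.31). Cdc6, the other one, was not above background on either WT LPS array, and its change was lower in Ifnar1-/- BMDMs by at least 5.48 log2.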

How the results depend on the processing

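Over 4822 values of called genes under the alternatives, 4031 remained called, 790 were no longer called and 1 reversed: Cdkn1a with LPS+zVAD in WT BMDMs was -0.61 log2 as the mean of its probes. Counts of members called that moved by over 1.5 times were the following. A fit of only the arrays compared gave 47 for LPS and 38 for LPS+zVAD in Ifnar1-/- BMDMs, 14 (WT) and 15 (Ifnar1-/-) for LPS+zVAD against LPS, 0 for Nec-1 added to LPS+zVAD in either genotype, 13 for untreated Ifnar1-/- against WT, and 0 for the difference of the changes from LPS to LPS+zVAD. For that difference no filter on dim probes gave 4 and the authors' normalized table gave 3. Without both Ifnar1-/- arrays of LPS+zVAD+Nec-1 the genotypes' difference with LPS was called in 8.

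With the slide as a fixed block, which pairs arrays within a genotype, the counts were 37 for LPS+zVAD in Ifnar1-/- BMDMs, 12 for LPS+zVAD against LPS, 25 for Nec-1 added to LPS+zVAD there, and 9 (LPS), 32 (IFNβ), 33 (IFNβ+zVAD) and 11 (LPS to LPS+zVAD) for the differences between genotypes. Shares of all genes called rose too under the slide block. They were 9.01% higher and 10.4% lower for LPS+zVAD against LPS in Ifnar1-/- BMDMs. For the differences between genotypes, 9.59% and 6.88% (LPS), 21.4% and 14% (IFNβ+zVAD) and 8.75% and 4.22% (LPS to LPS+zVAD) were positive and negative. The replicate block gave 8 for the difference with LPS and 32 for the untreated comparison. It also pairs same-numbered arrays of the 2 genotypes, which lay on different slides. No call was lost under either block, and no other count moved by over 1.5 times. With the slide as a random block 19 of the 21 untreated calls remained.

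With 1 array left out the counts ranged from 27 to 36 (WT LPS), 19 to 26 (WT IFNβ), 25 to 36 (WT LPS+zVAD), 23 to 34 (WT IFNβ+zVAD), 21 to 22 (Ifnar1-/- LPS) and 9 to 15 (Ifnar1-/- LPS+zVAD). For differences between genotypes they ranged from 3 to 7 (LPS), 8 to 14 (IFNβ), 10 to 16 (LPS+zVAD), 6 to 17 (IFNβ+zVAD) and 2 to 10 (LPS to LPS+zVAD). For LPS+zVAD against LPS they were 15 to 22 (WT) and 2 to 5 (Ifnar1-/-), for Nec-1 13 to 18 (WT) and 2 to 19 (Ifnar1-/-), and for the untreated comparison 6 to 20. Comparisons with 0 calls stayed at 0. The shift to the 75th percentile moved the median of all genes from -0.09 to 0.10 (WT LPS), from -0.18 to -0.02 (WT IFNβ), from -0.17 to 0.15 (WT LPS+zVAD) and from -0.17 to 0.00 (WT IFNβ+zVAD). The causes were not tested. Signal over background limits Cdc6, Cdc25c, Ttk and Kif2c, which had groups with no array above background.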
